A study of Homo sapiens with 6 samples.

Results

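The lipoxygenase and prostaglandin genes described here are 10 genes of arachidonic acid metabolism, taken by symbol out of the 38167 genes counted: the lipoxygenases ALOX15B, ALOX15, ALOX12B, ALOXE3 and ALOX5, the cyclooxygenases PTGS1 and PTGS2, the prostaglandin E synthase PTGES, the phospholipase PLA2G4A and the prostaglandin dehydrogenase HPGD. All 10 had a row in the count table and all 10 passed the count filter. They were measured by polyadenylated RNA sequencing in spheroids of Cal27, an established human tongue squamous carcinoma line, collected on day 14. One condition was stiff, with the gel-forming basement membrane preparation Matrigel at 12 mg/mL, and the other was soft, with Matrigel at 3 mg/mL; each had 3 libraries. The labels name no other agent or allele, and both conditions share the line, the liquid overlay technique and the harvest day. The labels call the libraries biological replicates without naming cultures or days, so the p-values cover library-to-library spread, which may be technical. A denser gel is both stiffer and richer in matrix ligand, and these cannot be told apart here. In bulk RNA, fewer cells of a type and less RNA per cell cannot be told apart either.

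Arachidonic acid is stored in membrane phospholipids and released by phospholipases. Cyclooxygenases convert it to an unstable intermediate from which terminal synthases make prostaglandins such as prostaglandin E2, which signals through surface receptors until it is taken up and oxidised. Lipoxygenases instead insert oxygen at a fixed carbon and give leukotrienes and hydroxy fatty acids; in stratified epithelium, lipoxygenases of the skin type also build the lipid barrier. Oral squamous carcinomas are known for high PTGS2 and prostaglandin E2.

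The libraries held between 30656278 and 40583044 counted fragments. In edgeR's quasi-likelihood test with Benjamini-Hochberg adjustment over 18676 genes, 49.1% of genes were called at an adjusted p below 0.05, 25.3% higher and 23.8% lower in stiff Matrigel than in soft Matrigel. Of the 10 genes, 5 were called (50%), 2 higher and 3 lower, a share near that of all genes. The median log2 fold change was -0.17 over the 10 genes and 0.00 over all genes tested. In 5 of the 10 genes the 3 stiff values lay apart from the 3 soft values, against 59.9% of all genes tested. The second principal component, with 10.8% of the variance, placed stiff replicate 2 at -35 and the other stiff libraries at 21.5 and 18.3; without replicate 2 the counts of the 10 genes called higher and lower were again 2 and 3. For the labelled squamous cell type, the markers KRT5, KRT14, KRT6A, KRT17, TP63, EPCAM and CDH1 were read in CPM. CPM are counts per 1000000, relative to the library size scaled by edgeR's TMM factors. The markers summed to between 17780 and 18818 CPM in stiff libraries and between 5554 and 6218 CPM in soft libraries. Most of the sum was keratin. EPCAM (means of 107 CPM in stiff and 135 CPM in soft) and CDH1 (235 and 320 CPM) were lower in stiff. The sum describes marker level and does not settle cell identity.

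ALOX15B rose most among the 10 genes, 9.32-fold. It encodes an arachidonate lipoxygenase known from skin, prostate and cornea (Entrez 247, chromosome 17, 8039059 to 8049134, plus strand, GRCh38). It had 11.1, 10.4 and 12.7 CPM in stiff libraries, against 1.47, 0.879 and 1.29 CPM in soft libraries. Every stiff library lay above every soft library, and the lowest stiff value was several times the highest soft value. The log2 fold change was 3.22 with a standard error of 0.18 (adjusted p = 7.32e-07). ALOX15B rested on 1212 fragments over the stiff libraries and 131 over the soft libraries.

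ALOX15 fell 2.37-fold. It encodes the lipoxygenase of reticulocytes, eosinophils and airway epithelium, an enzyme that also oxygenates arachidonate (Entrez 246, chromosome 17, 4630919 to 4641678, minus strand). It had 0.667, 0.673 and 0.693 CPM in stiff libraries, against 1.56, 1.38 and 1.9 CPM in soft libraries. The groups did not overlap, and the stiff libraries were closely alike. The log2 fold change was -1.24 with a standard error of 0.24 (adjusted p = 0.0017), from 72 fragments over the stiff libraries and 171 over the soft libraries. The 2 lipoxygenases of similar name thus moved in opposite directions, each by its own test. In CPM per kb of the longest transcript, a level that can be set between genes, ALOX15B was above ALOX15 in each stiff library (lowest 3.54 against highest 0.249), and below it in each soft library (0.499, 0.299 and 0.437 against 0.562, 0.495 and 0.681). With merged exons as the length, ALOX15B was instead above ALOX15 in soft replicate 1, at 0.485 against 0.46 CPM per kb.

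ALOX5, which makes the first intermediate of leukotriene synthesis (Entrez 240, chromosome 10, 45374216 to 45446117, plus strand), was not called. It had 15.8, 13.3 and 16.5 CPM in stiff libraries, against 17.7, 15.5 and 19.2 CPM in soft libraries. The groups overlapped. Its log2 fold change was -0.20, with a 95% interval of -0.46 to 0.05 (adjusted p = 0.166). ALOX5AP, the membrane protein that presents arachidonate to this enzyme, had 0 to 4 fragments in each of the 6 libraries and lay below the filter.

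The skin barrier pair was low in every library. ALOX12B oxygenates the linoleate of barrier ceramides (Entrez 242, chromosome 17, 8072636 to 8087716, minus strand), and ALOXE3 converts its product (Entrez 59344, chromosome 17, 8095900 to 8118916, minus strand). Both genes lie beside ALOX15B on chromosome 17. ALOX12B had 11, 17 and 15 fragments in stiff libraries, against 4, 13 and 4 in soft libraries. It passed the filter through its stiff libraries, since 1 of the 3 soft libraries reached the minimum of 0.278 CPM. Its log2 fold change was 1.02, with a 95% interval of -0.13 to 2.16 (adjusted p = 0.126). Without soft replicate 2, the soft library with 13 fragments, the log2 fold change was 1.83 (edgeR adjusted p = 0.0229). That fit left soft libraries of 4 fragments each, below the minimum, so the gene entered it through its stiff libraries alone. No conclusion is drawn from that call. An antisense transcript covers 26.8% of the exons of ALOX12B, so its counts are uncertain. ALOXE3 had 1.33, 1.46 and 1.36 CPM in stiff libraries, against 1.56, 1.91 and 1.45 CPM in soft libraries. Those groups overlapped in 1 library, and the log2 fold change of -0.24 had a 95% interval of -0.70 to 0.21 (adjusted p = 0.349).

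Among the 5 lipoxygenases, ALOX5 held the largest part of the summed level, taken as CPM per kb of the longest annotated transcript. Its share was 58.2%, 54.6% and 56.2% in stiff libraries, against 81.9%, 80.4% and 82.7% in soft libraries. The sum leaves out ALOX12, a further lipoxygenase whose counts are uncertain and whose level per kb was not taken. ALOX12 averaged 15.1 CPM in stiff and 12.1 CPM in soft, against 15.2 and 17.5 CPM for ALOX5. The shares therefore describe these 5 genes and not all lipoxygenases of the spheroids. ALOX15B held 34.8%, 36.5% and 36.9% in stiff libraries, against 5.78%, 3.88% and 4.71% in soft libraries. ALOX15 held between 2.13% and 2.49% in stiff libraries, against 6.43% to 7.35% in soft libraries. The order of ALOX5 and ALOX15B in stiff depends on the length used: with merged exons their ranges overlapped (3.55 to 4.41 CPM per kb for ALOX5, 3.44 to 4.19 CPM per kb for ALOX15B), and in the deposited TPM ALOX15B was the higher, at 5.8, 5.0 and 6.7 TPM against 3.5, 2.6 and 3.6 TPM for ALOX5. In soft libraries ALOX5 was the higher on all 3 scales. The deposited TPM carry a length factor of 7.47 for ALOX5 and 2.65 for ALOX15B (described at the end), which does not cancel between genes. The shares depend on each other, so a rise of ALOX15B lowers the share of ALOX5 without a change of its level.

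**Figure D1:**
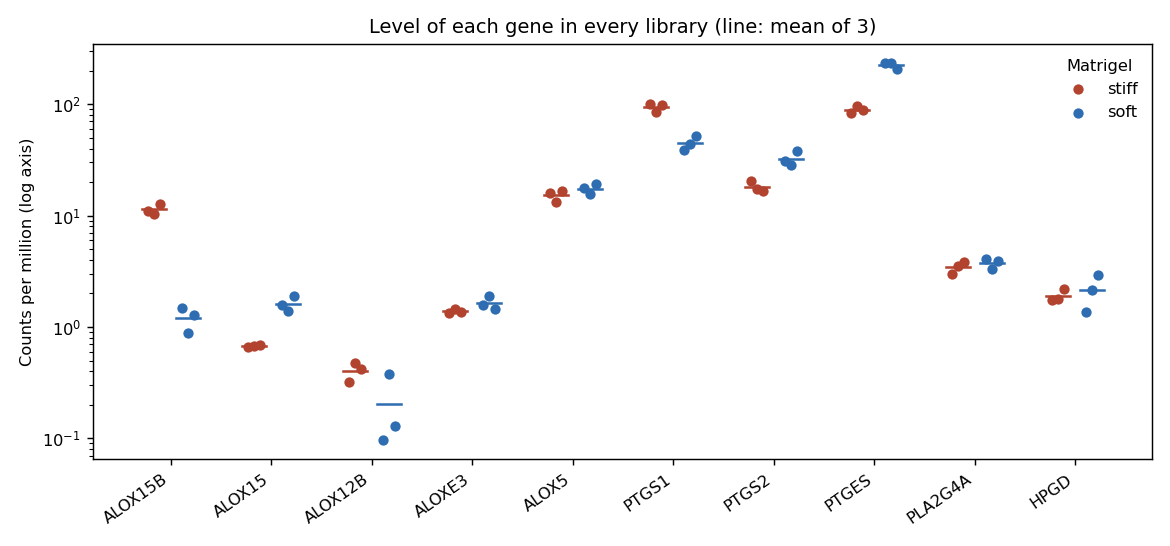
Level of each of the 10 genes in CPM on a log axis, with 1 point per library and a line at the mean of 3; red is stiff and blue is soft Matrigel. ALOX15B lies between 10.4 and 12.7 CPM in stiff libraries and between 0.879 and 1.47 CPM in soft libraries, whereas the points of ALOX5, ALOXE3, PLA2G4A and HPGD overlap between conditions.

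The prostaglandin branch moved in both directions. PTGS1, the cyclooxygenase known as constitutive (Entrez 5742, chromosome 9, 122370533 to 122395703, plus strand), rose 2.11-fold, while PTGS2, the cyclooxygenase induced by growth factors and inflammation (Entrez 5743, chromosome 1, 186671791 to 186680423, minus strand), fell 1.79-fold. PTGES, the inducible membrane synthase that turns the cyclooxygenase product into prostaglandin E2 (Entrez 9536, chromosome 9, 129738349 to 129753042, minus strand), fell 2.51-fold. The 250 bases upstream of their RefSeq starts (GRCh38.p14, 5′ to 3′ on the gene's strand) are shown because these are the 3 called genes of the branch among the 10; capitals mark matches on either strand to 4 motifs searched. The motif TATAAA stands for the TATA box and GGGCGG for the GC box. The motif CGTCA is the core of the cAMP response element, and the motif TGANTCA is the AP-1 site. No match overlapped another.
PTGS2 chr1:186680424-186680673, minus strand: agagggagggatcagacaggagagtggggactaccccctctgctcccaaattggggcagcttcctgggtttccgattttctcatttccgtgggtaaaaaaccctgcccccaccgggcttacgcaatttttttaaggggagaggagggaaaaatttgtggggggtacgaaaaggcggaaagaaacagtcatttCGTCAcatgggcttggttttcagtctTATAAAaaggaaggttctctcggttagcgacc
PTGES chr9:129753043-129753292, minus strand: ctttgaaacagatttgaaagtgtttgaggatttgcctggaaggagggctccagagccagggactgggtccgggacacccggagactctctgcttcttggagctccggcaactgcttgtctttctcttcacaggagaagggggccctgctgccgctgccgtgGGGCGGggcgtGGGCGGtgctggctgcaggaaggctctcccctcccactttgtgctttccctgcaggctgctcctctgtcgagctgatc
PTGS1, first start, chr9:122370283-122370532, plus strand: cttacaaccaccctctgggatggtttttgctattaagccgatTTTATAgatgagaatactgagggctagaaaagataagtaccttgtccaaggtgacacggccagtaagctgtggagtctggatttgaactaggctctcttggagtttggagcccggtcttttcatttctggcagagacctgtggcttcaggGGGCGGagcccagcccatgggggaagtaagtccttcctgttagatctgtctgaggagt
PTGS1, second start, chr9:122375052-122375301, plus strand: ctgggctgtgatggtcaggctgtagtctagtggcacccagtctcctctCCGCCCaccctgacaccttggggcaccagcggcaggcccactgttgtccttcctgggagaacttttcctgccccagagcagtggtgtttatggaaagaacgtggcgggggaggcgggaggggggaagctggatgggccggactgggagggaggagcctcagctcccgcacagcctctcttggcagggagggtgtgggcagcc

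The window of PTGS2 holds TATAAA from 32 to 27 bases and CGTCA from 58 to 54 bases upstream of its start. The window of PTGES holds GGGCGG at 2 places (89 to 84 and 78 to 73 bases upstream) and no TATAAA, and its GC content is 61.2% against 50.4% for PTGS2. The windows of PTGS1 each hold 1 GC box, and its first window holds TATAAA on the opposite strand from 208 to 203 bases upstream. Of the 35116 RefSeq windows of this length, TATAAA occurs in 10.7%, GGGCGG in 42.6%, CGTCA in 21.2% and TGANTCA, which none of the 4 windows holds, in 6.57%. These matches are letters in a window and were not tested against expression. The table of RefSeq start windows used here held 7 of the 10 genes, without ALOX15B, ALOX15 and ALOX5.

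PTGS1 had 101, 85 and 99.3 CPM in stiff libraries, against 39.1, 44 and 52.2 CPM in soft libraries. The groups did not overlap, and stiff replicate 2 was the lowest of its group. The log2 fold change was 1.08 with a standard error of 0.11 (adjusted p = 3.49e-05), and it was 1.15 without stiff replicate 2. PTGS2 had 20.5, 17.2 and 16.5 CPM in stiff libraries, against 30.7, 28.2 and 38 CPM in soft libraries. Here every stiff library lay below every soft library, with a log2 fold change of -0.84 and a standard error of 0.13 (adjusted p = 0.000399). Within a library, the level of PTGS1 per kb of longest transcript was 4.41, 4.43 and 5.4 times that of PTGS2 in stiff libraries, against 1.14, 1.4 and 1.23 times in soft libraries. This ratio depends on the length used: in the deposited TPM it was 0.335, 0.333 and 0.409 in stiff libraries and 0.0861, 0.104 and 0.0927 in soft libraries. The order of the 2 genes is thus opposite on the 2 scales, while the ratio is higher in every stiff library than in every soft library on both. The deposited TPM carry a length factor of 13.4 for PTGS1 and 1.01 for PTGS2 (described at the end), which does not cancel between genes.

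**Figure D2:**
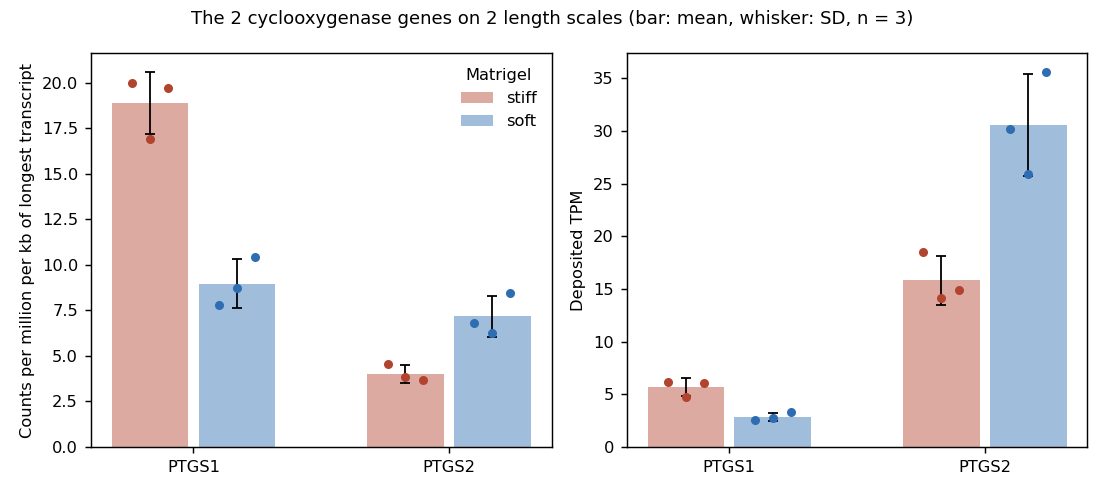
Level of PTGS1 and PTGS2 in stiff (red) and soft (blue) Matrigel, as CPM per kb of longest transcript (left) and as deposited TPM (right); bars are means, whiskers SD of 3 libraries and points the libraries. PTGS1 is above PTGS2 on the left, at 18.9 against 4 in stiff Matrigel, and below it on the right, while on both scales PTGS1 is higher and PTGS2 lower in stiff than in soft.

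PTGES had 83.9, 95.8 and 89 CPM in stiff libraries, against 233, 235 and 207 CPM in soft libraries. No stiff value came near the soft values. The log2 fold change was -1.33 with a standard error of 0.08 (adjusted p = 1.06e-06). PTGES was the most abundant of the 10 genes per unit of length in both conditions, at 48 ± 3.21 CPM per kb in stiff and 120 ± 8.45 CPM per kb in soft (SD, n = 3 each).

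The genes at the start and end of the branch were not called. PLA2G4A, the cytosolic phospholipase that releases arachidonate (Entrez 5321, chromosome 1, 186828949 to 186988981, plus strand), had 3.02, 3.56 and 3.83 CPM in stiff libraries, against 4.04, 3.34 and 3.95 CPM in soft libraries. Its groups overlapped, and the 95% interval of its fold of stiff over soft was 0.72 to 1.17 (adjusted p = 0.533). HPGD, the dehydrogenase that inactivates prostaglandins (Entrez 3248, chromosome 4, 174490175 to 174522893, minus strand), had 1.74, 1.79 and 2.19 CPM in stiff libraries, against 1.35, 2.14 and 2.93 CPM in soft libraries. The soft libraries enclosed the stiff ones, and the 95% interval of the fold was 0.594 to 1.38 (adjusted p = 0.68). Its log2 fold change of -0.15 became 0.14 without soft replicate 3.

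**Figure D3:**
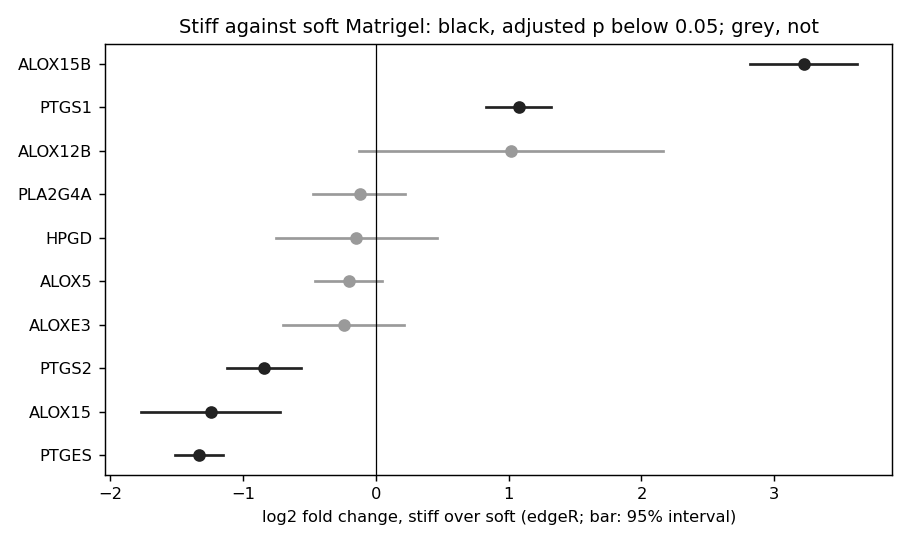
Log2 fold change of stiff over soft Matrigel for the 10 genes, with 95% intervals from edgeR; black marks an adjusted p below 0.05 and grey the others. ALOX15B (3.22) and PTGS1 (1.08) lie above 0, PTGS2 (-0.84), ALOX15 (-1.24) and PTGES (-1.33) lie below it, and the intervals of the other 5 genes include 0.

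Ordered by CPM per kb of longest transcript, the mean levels in stiff Matrigel ran from PTGES (48) through PTGS1 (18.9), ALOX5 (6.05), PTGS2 (4), ALOX15B (3.87), PLA2G4A (1.21), HPGD (0.63), ALOXE3 (0.411) and ALOX15 (0.243) to ALOX12B (0.161). PTGS2 and ALOX15B were the only neighbours in that order whose library ranges overlapped. In soft Matrigel the order was PTGES (120), PTGS1 (8.96), PTGS2 (7.16), ALOX5 (6.97), PLA2G4A (1.31), HPGD (0.706), ALOX15 (0.579), ALOXE3 (0.487), ALOX15B (0.411) and ALOX12B (0.0803). There the ranges of PTGS1 and PTGS2, of PTGS2 and ALOX5, of HPGD and ALOX15, of ALOX15 and ALOXE3, and of ALOXE3 and ALOX15B overlapped. ALOX15B thus ranked 5 of 10 in stiff and 9 of 10 in soft. With merged exons as the length, the order in stiff placed ALOX15B above PTGS2 and ALOXE3 above HPGD, each with overlapping ranges, and in soft it placed HPGD below ALOX15B, also with overlapping ranges.

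The other genes of the pathway were read from 7 lists with 82 genes, of which 58 were tested. Of these, 34 were called higher and 9 lower (74.1% called, against 49.1% of all genes tested), with a median log2 fold change of 0.38. Under limma on the deposited TPM, in each of 3 settings, 22 were called higher and 9 lower. Those settings tested 47, 47 and 71 of the 82 genes, so the counts do not rest on the same 58 genes. The 34 in edgeR include DPEP1, described below, which passed the filter through its stiff libraries. The lists were chosen with earlier results of these data known, which can itself raise their share of calls. That share and the shares per list below were not tested against other genes, and no conclusion is drawn from them.

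Of 5 tested terminal prostanoid synthases, 2 rose, 2 fell and 1 did not pass (80% called, against 49.1% of all genes tested). PTGES2, another enzyme named as a prostaglandin E synthase, fell 2.81-fold. It had 66.9, 85.6 and 68.6 CPM in stiff libraries, against 214, 211 and 196 CPM in soft libraries (log2 fold change -1.49, SE 0.10, adjusted p = 1.84e-06). PTGES and PTGES2 therefore both lay lower in every stiff library than in every soft library. PTGES3, the cytosolic synthase that is also a co-chaperone, averaged 283 ± 27.3 CPM in stiff and 254 ± 7.39 CPM in soft (SD, n = 3 each, edgeR adjusted p = 0.127). Chosen for mention only once their values were known were AKR1C3, which makes prostaglandin F (1.8-fold higher), the carbonyl reductase CBR1 (1.88-fold higher) and PRXL2B, a prostamide synthase (1.84-fold lower). An antisense transcript covers 18.9% of the exons of CBR1, and MMEL1 covers 13.4% of those of PRXL2B, so the counts of both are uncertain. AKR1C3 has close paralogs and PTGES3 has processed pseudogenes, which can share reads with them, so their counts are uncertain too. The synthases of prostaglandin D, prostacyclin and thromboxane (PTGDS, HPGDS, PTGIS and TBXAS1) lay below the filter, with 0 to 8 fragments per library.

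Of 7 tested eicosanoid receptors, 3 rose, 0 fell and 4 did not pass (42.9% called, against 49.1% of all genes tested). LTB4R, the high-affinity leukotriene B4 receptor, rose 2.39-fold. It had 83.3, 88.7 and 84.2 CPM in stiff libraries, against 32.2, 34.3 and 40.7 CPM in soft libraries (log2 fold change 1.26, SE 0.09, adjusted p = 3.72e-06). LTB4R2, its low-affinity relative, rose 2.21-fold to 24.1 ± 4.02 CPM in stiff, against 11 ± 2.87 CPM in soft (SD, n = 3 each, edgeR adjusted p = 0.00054). CIDEB covers 39.5% and LTB4R 11% of the exons of LTB4R2, so its counts are uncertain. The third, named after its values were seen, was the prostacyclin receptor PTGIR (1.35-fold higher, adjusted p = 0.00639). Of the prostaglandin E2 receptors, PTGER4 averaged 1.54 CPM in stiff and 1.29 CPM in soft (adjusted p = 0.344), PTGER2 averaged 0.341 CPM in stiff and 0.659 CPM in soft (adjusted p = 0.13), and PTGER1 and PTGER3 lay below the filter.

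Of 8 tested leukotriene and lipoxygenase partners, 6 rose, 1 fell and 1 did not pass (87.5% called, against 49.1% of all genes tested). One of those called higher, the dipeptidase DPEP1 of leukotriene breakdown, passed the filter through its stiff libraries: it had 23, 33 and 14 fragments in stiff libraries, against 17, 5 and 3 in soft libraries, and 1 soft library reached the minimum. Its groups overlapped (adjusted p = 0.0349). LTA4H, which makes leukotriene B4 and was named after its values were seen, averaged 153 ± 9.08 CPM in stiff and 102 ± 6.27 CPM in soft (SD, n = 3 each, edgeR adjusted p = 0.000148). ALOX12, the platelet-type lipoxygenase, was 1.24-fold higher (adjusted p = 0.0202), and an antisense gene covers 18.8% of its exons, so its counts are uncertain. LTC4S, the synthase of the other leukotriene arm, averaged 1.13 CPM in stiff and 1.49 CPM in soft (adjusted p = 0.2). The gene that fell was MGST2, a microsomal glutathione transferase of leukotriene C4 synthesis (1.31-fold lower, adjusted p = 0.00832). The related transferase MGST3 rose 1.81-fold (adjusted p = 0.000338), and GGT1, a glutamyltransferase that trims leukotriene C4 and has close paralogs that make its counts uncertain, rose 1.54-fold (adjusted p = 0.000141). DPEP1, MGST2, MGST3 and GGT1 were chosen for mention with their values known.

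Of 7 tested transport and inactivation genes, 5 rose, 2 fell and 0 did not pass (100% called, against 49.1% of all genes tested). PTGR1, which inactivates leukotriene B4 and reduces the oxidised prostaglandins downstream of HPGD, rose 2.11-fold. It had 143, 173 and 144 CPM in stiff libraries, against 71.3, 69.3 and 76.8 CPM in soft libraries (log2 fold change 1.08, SE 0.09, adjusted p = 7.43e-06). The others that rose were PTGR2 (1.23-fold) and the fatty acid hydroxylases CYP4F12 (3.28-fold), CYP4F3 (2.99-fold) and CYP4F11 (1.44-fold). CYP4F12 was low, at 3.41 CPM in stiff and 1.04 CPM in soft, as was CYP4F3, at 4.79 and 1.59 CPM. The CYP4F genes are close paralogs and other transcripts cover 12.3% and 18% of the exons of PTGR2, so these counts are uncertain. The exporters ABCC4 and ABCC1 were those that fell, 1.58-fold and 1.39-fold; all 6 were outside the rule for named genes and were picked with their values known. The prostaglandin uptake transporter SLCO2A1 had 6, 2 and 2 fragments in stiff libraries and 0 in each soft library, below the filter.

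Of 18 tested lipid release and arachidonate handling genes, 10 rose, 2 fell and 6 did not pass (66.7% called, against 49.1% of all genes tested). FADS2, the desaturase that starts the conversion of linoleate to arachidonate, rose 2.11-fold to 16.4 ± 0.975 CPM in stiff, against 7.75 ± 0.817 CPM in soft (SD, n = 3 each, edgeR adjusted p = 3.07e-05). ACSL4, which activates arachidonate for membranes and was named after its values were seen, rose 1.45-fold. Among phospholipases, PLA2G4F (1.68-fold), PLA2G4B (1.64-fold), PLA2G4E (1.46-fold), PLA2G6 (1.42-fold) and PLA2G15 (1.29-fold) rose, whereas PLA2G12A (0.801 times the soft level) and PLAAT3 (0.739 times) fell, all 7 named afterwards. PLA2G4F was low, at 1.88 CPM in stiff and 1.11 CPM in soft (edgeR adjusted p = 0.0291). Overlapping transcripts cover 75.6% of the exons of PLA2G4B and 22.5% of those of PLA2G6, so both counts are uncertain. ANXA1, a phospholipase inhibitor, averaged 412 CPM in stiff and 424 CPM in soft (adjusted p = 0.635). Of 3 tested epoxygenase and epoxide hydrolase genes, 1 rose, the epoxide hydrolase EPHX2 (1.31-fold, named afterwards), and 2 did not pass (33.3% called).

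Of 10 tested skin barrier lipid genes, 7 rose, 2 fell and 1 did not pass (90% called, against 49.1% of all genes tested). NIPAL4, an ichthyosis gene of the same barrier pathway as ALOX12B, rose 3.81-fold. It had 56.9, 54.7 and 50.6 CPM in stiff libraries, against 13.3, 14.7 and 14.7 CPM in soft libraries (log2 fold change 1.93, SE 0.08, adjusted p = 2.2e-07). ABCA12, the lipid transporter of lamellar granules, fell 2.92-fold to 19.5 ± 3.47 CPM in stiff, against 56.8 ± 7.41 CPM in soft (SD, n = 3 each, edgeR adjusted p = 1.36e-05). SULT2B1, a cholesterol sulfotransferase named after its values were seen, rose 8.03-fold to 5.2 CPM in stiff, against 0.641 CPM in soft. ABHD5, a lipase cofactor that was also named afterwards, fell 1.53-fold. CYP4F22, PNPLA1 and SDR9C7, which act beside ALOX12B and ALOXE3 in barrier ceramide synthesis, lay below the filter.

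**Figure D4:**
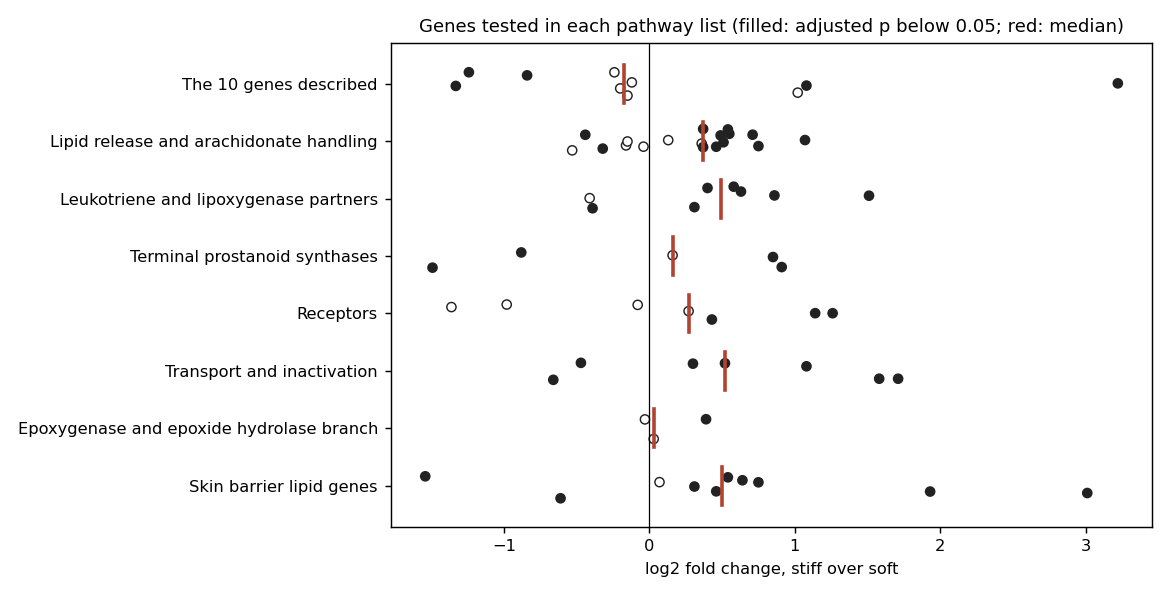
Log2 fold change of stiff over soft Matrigel for the tested genes among the 10 described and in each of 7 lists of other pathway genes; filled points have an adjusted p below 0.05 and red bars are medians. The 10 genes spread from -1.33 to 3.22 around a median of -0.17, and the list of terminal prostanoid synthases spreads from -1.49 to 0.91.

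Several of these enzymes are also products of blood cells and stroma. The leukocyte, mast cell and B cell markers PTPRC, LYZ, MS4A1, TPSAB1 and FCER1A lay below 0.1 CPM in each of the 6 libraries. The whole list of 12 leukocyte and platelet markers summed to between 137 and 151 CPM in stiff libraries and between 107 and 115 CPM in soft libraries. The sum came mostly from CD68 (101 CPM in stiff, 55.8 CPM in soft) and CD14 (36.6 and 51.4 CPM). Of the 6 tested genes of the list, 3 rose and 2 fell. ITGAM averaged 4.99 CPM in stiff and 2.96 CPM in soft, and ITGA2B 1.64 and 0.599 CPM. KIT averaged 0.116 CPM in stiff and 0.783 CPM in soft, PF4 0.0277 and 0.123 CPM, and CD3E 0.51 and 0.567 CPM. The 6 fibroblast markers summed to between 99.1 and 106 CPM in stiff libraries, against 72.8 to 80.3 CPM in soft libraries. COL3A1 lay below 0.1 CPM in each library, and 2 of 4 tested genes were higher and 0 lower. Most of the sum was COL1A1 (82.6 CPM in stiff, 71.8 CPM in soft), while LUM averaged 17.3 CPM in stiff and 2.31 CPM in soft. The 3 endothelial markers summed to between 3.2 and 4.1 CPM in stiff libraries, against 1.67 to 2.05 CPM in soft libraries. The squamous markers, whose sums are given above, rose in 5 of 7 cases and fell in 2 (EPCAM and CDH1). The part of these cell states in the changes of ALOX15B, PTGS1, PTGS2 and PTGES was not tested.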

How the data were processed

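The 6 RNA libraries of Cal27 spheroids (labels: soft and stiff, replicates 1 to 3) were used. The deposited counts are whole fragments per gene symbol, not normalized; per the submitters' processing notes, featureCounts 1.6.2 and STAR 2.6.1e were used with hg38, beside cutadapt 1.9.1, Trim Galore 0.4.2 and FastQC 0.11.7. The kit keeps strand, per the labels' protocols; the counting annotation and strand setting were not given in the sources. The deposited TPM were given by the authors to 1 decimal, and counts divided by TPM gave gene lengths that grow with the number of RefSeq transcripts, so levels between genes were taken as CPM per kb of the longest GENCODE release 29 transcript.

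The test was edgeR 4.0.16 in R 4.3.3 (quasi-likelihood F test, TMM factors, default filter with a minimum count of 10, no covariate) on all genes, adjusted by Benjamini-Hochberg and called below 0.05; intervals are 95%. The code was tested on simulated data. Alternatives used DESeq2 1.42.0, limma 3.58.1 on log2(TPM + pseudocount), other scalings, filters and thresholds, each library left out, and a block for replicate number. Libraries of a condition differed beyond sampling noise in each pair (chi-square over its degrees of freedom 3.39 to 33.4).

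The genes and lists were chosen with earlier results of these data known. Besides the 10 genes, the text names called pathway genes that average 5 CPM or more and differ 2-fold or more, at most the 4 of smallest p per list; others are marked as named afterwards or stand as uncalled or filtered context. Each called gene of the 10 averaging 5 CPM or more was given its 3 most correlated genes. Where a partner on either strand covers 10% or more of the exons of a gene checked for overlap, its counts are given as uncertain. Overlap was not checked for ACSL4, PLA2G4F, PLA2G12A, PLA2G15, PLAAT3, DPEP1, ANXA1, LTC4S, PTGER2 and PTGER4. It was also not checked for the pathway genes below the filter, the markers and the correlated genes. Positions come from RefSeq GRCh38.p14, where 35508 of 38167 symbols matched.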

Additional observations from a re-analysis of the deposited data

How the results depend on the processing

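The directions and calls of ALOX15B, ALOX15, PTGS1, PTGS2 and PTGES were the same under each of 17 alternatives, with log2 fold changes of 2.03 to 3.40, -1.35 to -0.83, 0.78 to 1.19, -0.94 to -0.71 and -1.44 to -1.28. The values nearest 0 for ALOX15B, ALOX15 and PTGS1 came from limma on log2(TPM + 1), a scale that understates low genes. ALOX12B was called only without soft replicate 2, the 1 soft library in which it reached the filter minimum, so that call is not read as a result. HPGD ranged from -0.41 to 0.14 with 1 library left out. Limma gave fewer genes called higher over the whole table: 2880 on log2(TPM + 1), 2831 on log2(TPM + 0.1) and 3138 on log2(TPM + 1) without a filter, against 4722 in edgeR, and 22 of the other pathway genes in each of these 3 settings, against 34; the cause was not tested. On log2(TPM + 1), 41.3% of calls were higher, against 51.5% in edgeR, and on log2(TPM + 0.1) the median of all genes shifted by -0.11. With the replicate number as a block, 2 of the 10 genes were higher and 3 lower, and 5167 genes were higher and 5039 lower over the whole table. Same-numbered libraries deviated together weakly (r = 0.0733, 0.216 and 0.05), and the r between libraries of different number ran from -0.164 to 0.093. These values do not settle whether the numbers mark pairs. The labels name no pairs, so the main test used none. The ratio of PTGS1 to PTGS2, computed on other lengths after seeing the data, was 4.82 in stiff and 1.28 in soft with merged exons, and 0.359 in stiff and 0.0943 in soft with the deposited TPM. Depth limits ALOX12B most, with 43 fragments over the stiff libraries and 21 over the soft libraries.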

Other observations

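Over the 6 libraries, the profiles most like those of the called genes above 5 CPM were named by Pearson's r of log2 CPM among 11726 genes, as a description. ALOX15B was followed by GLIS2 (0.9992), VSIR (0.9990) and ELOVL7 (0.9989), and PTGS1 by MEGF6 (0.9994), the matrix glycoprotein SPARC (0.9987) and ABI3BP (0.9986). PTGES was followed by IDH1 (0.9996), PIGQ (0.9994) and PAPSS1 (0.9993), and PTGS2 by ANKMY2 (0.9947), ACCS (0.9901) and PIK3R4 (0.9874). A shared difference between 2 conditions alone gives a high r: 1330 genes had an r over 0.95 with ALOX15B, 1010 with PTGS1, 1298 with PTGES and 160 with PTGS2. The profile of ALOX15B was matched by genes of far smaller fold, such as GLIS2 at 38.9 CPM in stiff and 23 CPM in soft.

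The deposited TPM carry a gene length that differs from that of a transcript. Among 4743 well counted genes, the ratio of counts to TPM per base of longest transcript was 1.92 times as high in genes with 2 RefSeq transcripts as in genes with 1, 2.75 times with 3, 4.37 times with 5 and 6.37 times with 8. For the genes described here the factor was 13.4 for PTGS1, 8.05 for ALOXE3, 7.47 for ALOX5, 5.97 for HPGD, 3.92 for PLA2G4A and 2.65 for ALOX15B, against 1.01 for PTGS2, 0.999 for ALOX12B, 0.973 for ALOX15 and 0.947 for PTGES. These factors were taken without a minimum level. ALOXE3, HPGD and ALOX12B had at most 0.7 TPM in any library, given to 1 decimal, so their factors are rough. A fixed length cancels when 1 gene is compared between libraries, but not between genes: soft replicate 1 lists 2.6 TPM for PTGS1 and 30.2 TPM for PTGS2 from 1626 and 1277 fragments, although the longest transcripts are 5039 and 4514 bases.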
